A study of Homo sapiens with 9 samples.

Results

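The genes described here encode the enzymes and assembly factors that copy DNA in S phase. They were taken as a named list of 46 genes, and each of the 46 had 1 probe set among the 23931 genes tested. The cells are H2009, an established line of human lung adenocarcinoma. They carry CRISPRa, a Cas9 without nuclease activity that is joined to transcription activators (VP64, p65 and Rta) and that a single guide RNA brings to a chosen site. The sgRNA-A and sgRNA-B cells were made to raise the microRNAs of the 14q32 locus, and control cells held the empty guide vector. The labels place all groups in blasticidin, describe no other treatment, and give 3 biological replicates of each clone, so there were 3 arrays a group and 9 in all. Each guide is 1 clone, so what the guide does and what the clone was like beforehand cannot be told apart, and p-values measure spread among cultures within clones only. Levels are log2 values of single arrays, and a log2 fold change is the difference of 2 group means.

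Replication starts at origins, where the origin recognition complex, CDC6 and CDT1 load the ring of MCM proteins during G1. Kinases then turn the ring, with CDC45 and the GINS complex, into the moving helicase, and polymerases with the sliding clamp PCNA copy both strands. Most of these genes are targets of E2F transcription factors, which switch them on as cells leave G1, so their messages are usual markers of proliferating cells, tumour cells among them.

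The 95th percentile of 355 olfactory receptor genes, 4.44 log2 units, was taken as the level of silent genes. All 8 epithelial markers lay above it, as did 2 of 6 lung lineage markers (NKX2-1 and SFTPC), 0 of 5 blood markers, 0 of 4 endothelial markers and 1 of 6 fibroblast markers (COL1A1). The root mean square distance of an array from the mean of the other arrays of its group was 0.126 to 0.146 for 8 arrays and 0.168 for sgRNA-A replicate 3. MEG3, a non-coding RNA of the targeted locus, had mean levels of 3.61 ± 0.04 (control), 3.55 ± 0.02 (sgRNA-A) and 3.64 ± 0.06 log2 units (sgRNA-B; SD, n = 3 each), all below the level of silent genes, so it gives no check of the activation. Of the 46 replication genes, 45 lay above that level. The exception was CHAF1B, a subunit of the histone chaperone CAF-1, at 4.23 ± 0.03 log2 units in control cells (SD, n = 3), where a change in level may not be seen.

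Replication genes stayed close to their control levels with both guides, and the helicase subunit MCM6 was the member that fell with each of them. With sgRNA-A, 1 of 46 members fell and 0 rose, which is 2.17% of members called against 2.18% of all genes (1.22% called lower and 0.957% higher). With sgRNA-B again 1 fell and 0 rose, or 2.17% against 3.07% of all genes (1.51% called lower and 1.56% higher). Both shares are no higher than the background, so the list as a whole did not stand out by its calls. At such background shares, 0 calls in a role of few members is no result about that role. A gene was called when its adjusted p in limma was below 0.05 after Benjamini-Hochberg adjustment over all genes tested.

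The changes were small and closely bounded. The largest member changes were 1.19-fold with sgRNA-A and 1.20-fold with sgRNA-B. With sgRNA-A 29 of 46 members differed from control by less than 0.1 log2 units, and with sgRNA-B 33 did. Every 95% interval of the fit, for all 46 members and each guide against control, lay within 0.5 log2 units of 0, reaching a median of 0.11 to either side of the estimate. The median spread between arrays of a group was 0.054 log2 units for the members and 0.085 for all genes. The median log2 fold change of the members was -0.046 with sgRNA-A, against 0.0036 over all genes, and -0.023 with sgRNA-B, against -0.0039. Fold changes below 0 were seen for 32 members with sgRNA-A (69.6%, against 48.3% of all genes) and for 27 with sgRNA-B (58.7%, against 51.6%). Single arrays moved these medians: leaving out control replicate 3 took the sgRNA-A median to -0.025, leaving out sgRNA-A replicate 3 took it to -0.030, and leaving out control replicate 2 took the sgRNA-B median to -0.0060. Both comparisons use the same control arrays, so their likeness is not independent evidence. In these bulk samples, fewer cells in S phase and less message per cell cannot be told apart.

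**Figure D1:**
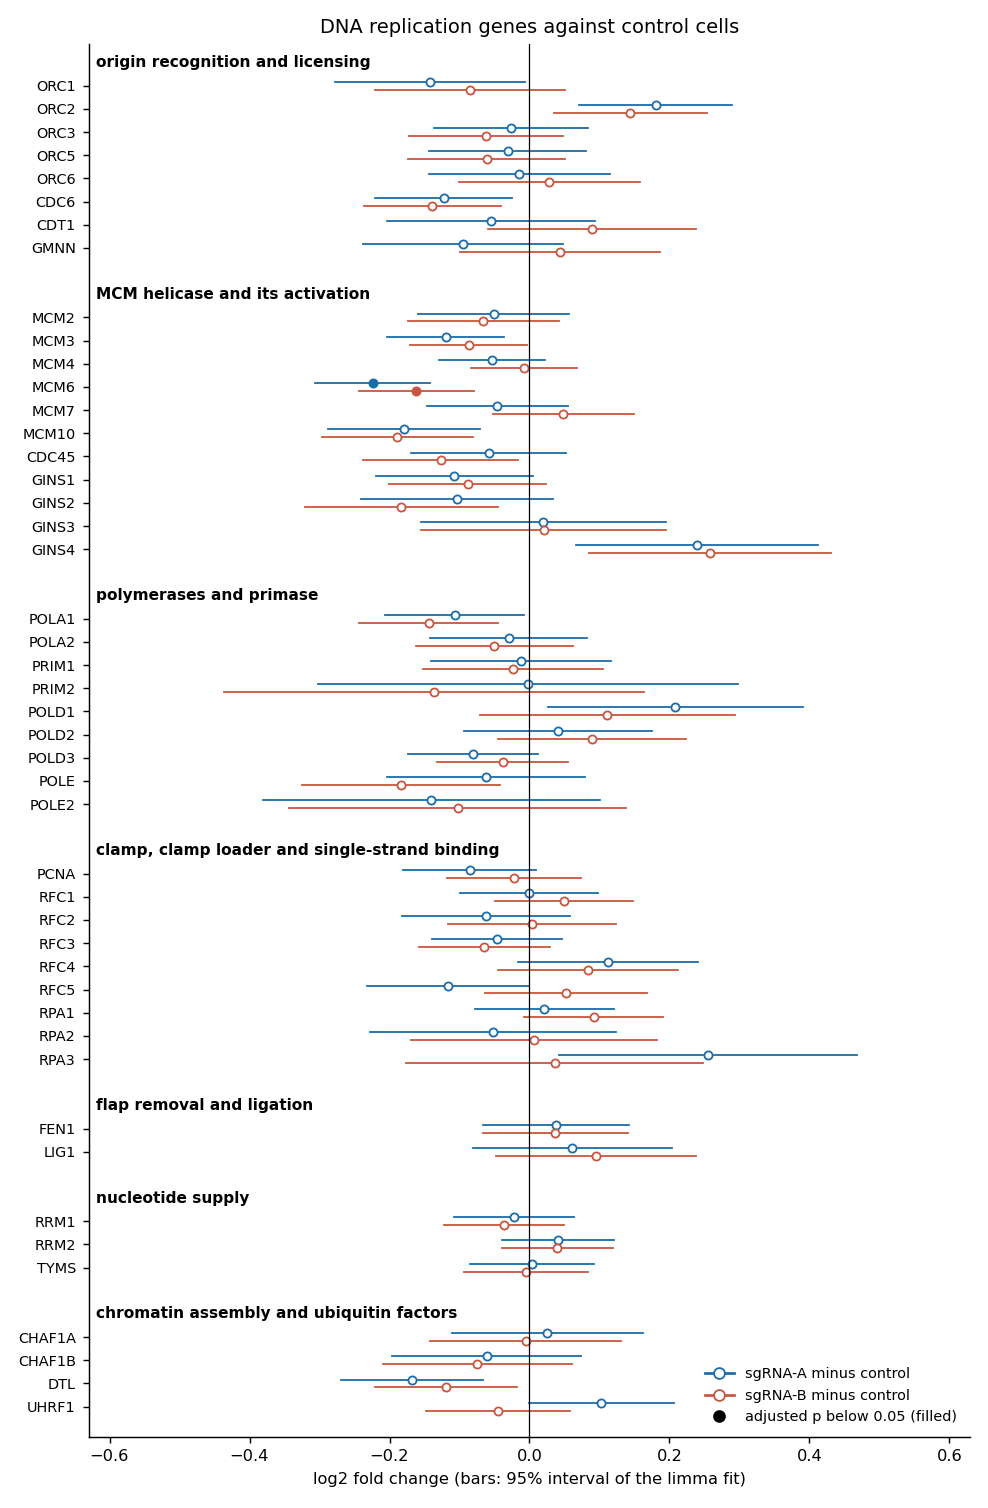
Log2 fold change against control cells (horizontal axis) of the 46 replication genes by role, for sgRNA-A (blue) and sgRNA-B (red), with 95% intervals of the limma fit from 3 arrays a group. Filled points have an adjusted p below 0.05, which holds for MCM6 only, and most intervals span 0.

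The MCM helicase and the factors that activate it held the members called. MCM6 is 1 of the subunits of the ring that unwinds DNA. Its level was 10.39, 10.36 and 10.39 log2 units in the control arrays, 10.17, 10.13 and 10.17 with sgRNA-A and 10.23, 10.21 and 10.22 with sgRNA-B. Every guide array was below every control array, and every sgRNA-A array was below every sgRNA-B array. With sgRNA-A, MCM6 fell by 14.4%, a log2 fold change of -0.22 with an SE of 0.04 (adjusted p = 0.00833, limma). With sgRNA-B it fell by 10.6%, a log2 fold change of -0.16 with the same SE (adjusted p = 0.0366, limma). Between the guides the difference was -0.062 with a 95% interval of -0.14 to 0.02 and did not pass (adjusted p = 0.590, limma). The sgRNA-A call held in each of 18 alternative analyses (adjusted p = 0.00533 to 0.0468, limma). The sgRNA-B call lay near the threshold and was lost in 10 of 18 alternatives. Among these were the fits without the mean-variance trend (adjusted p = 0.0750, limma) and with only the groups compared (0.0589), and those without control replicate 1 (adjusted p = 0.121, limma), 2 (0.0502) or 3 (0.101), sgRNA-A replicate 1 (0.0514), or sgRNA-B replicate 1 (0.104), 2 (0.110) or 3 (0.106), with values from 0.0240 to 0.121 over all alternatives.

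MCM10, which helps to activate the helicase and to bring polymerase alpha to it, was lower to a like extent with both guides. The control arrays measured 9.77, 9.87 and 9.93, the sgRNA-A arrays 9.70, 9.64 and 9.69 and the sgRNA-B arrays 9.71, 9.66 and 9.63. All guide arrays lay below all control arrays, and the lowest control array was replicate 1. Neither guide passed alone, at -0.18 with sgRNA-A (adjusted p = 0.0921, limma) and -0.19 with sgRNA-B (adjusted p = 0.0617, limma). In the mean of both guides against control, MCM10 fell, with a log2 fold change of -0.18 and an SE of 0.04 (adjusted p = 0.0324, limma). MCM6 fell by 12.5% there, at -0.19 with an SE of 0.03 (adjusted p = 0.00513, limma). These were the members called in that comparison, 2 of 46 or 4.35% against 3.57% of all genes (1.80% called lower and 1.77% higher). The MCM10 call was lost in 9 of 17 alternatives, among them the fits without the mean-variance trend (adjusted p = 0.0678, limma) and without control replicate 2 (adjusted p = 0.0911, limma) or 3 (0.157), sgRNA-A replicate 1 (0.0513), 2 (0.0632) or 3 (0.0534), or sgRNA-B replicate 2 (0.0648) or 3 (0.0724), within a range of 0.0210 to 0.157 over its alternatives.

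The promoters of these 2 genes are shown because they are the members called. They differ in matches to a short list of E2F words. E2F factors are the usual input of the pathway. Sequences are from RefSeq on GRCh38.p14 and run from 250 bases before to 50 after the start of the gene. MCM6 lies on the minus strand at chr2:135876394-135876693 and MCM10 on the plus strand at chr10:13161308-13161607. Capitals mark any match, on either strand, to the E2F words TTTCCCGC, TTTCGCGC, TTTGCCGC and TTTGGCGC.
MCM6: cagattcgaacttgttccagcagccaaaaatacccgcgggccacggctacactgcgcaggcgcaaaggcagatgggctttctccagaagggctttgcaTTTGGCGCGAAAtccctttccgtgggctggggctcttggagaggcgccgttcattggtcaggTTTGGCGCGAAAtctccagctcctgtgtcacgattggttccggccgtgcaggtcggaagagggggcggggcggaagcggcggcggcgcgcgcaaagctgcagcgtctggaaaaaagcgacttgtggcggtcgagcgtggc
MCM10: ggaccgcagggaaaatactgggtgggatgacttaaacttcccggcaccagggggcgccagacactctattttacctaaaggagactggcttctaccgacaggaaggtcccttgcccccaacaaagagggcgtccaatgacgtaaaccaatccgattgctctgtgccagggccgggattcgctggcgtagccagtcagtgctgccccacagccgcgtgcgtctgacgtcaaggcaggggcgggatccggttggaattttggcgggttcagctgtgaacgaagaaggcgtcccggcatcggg

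The MCM6 window held 4 matches in 2 identical stretches, each with TTTGGCGC on the plus strand (first bases at -152 and -90 from the start) overlapping TTTCGCGC on the minus strand (-148 and -86). The MCM10 window held 0 matches to these words. Its stretch tttggcgg, near the start, differs from TTTGGCGC in the last base only, and other spellings were not searched. Of the 46 members, 41 had a promoter in the table, and 20 of these (48.8%) held an E2F word, against 3.31% of all 35116 promoters of the same length. The word CCAAT, bound by NF-Y, was in 25 of the 41 on either strand (61.0%, against 34.6%). TTTGAA, a core of the element that marks G2/M genes, was in 1 of the 41 (2.44%, against 15.2%), and in 18 of 24 promoters of a G2/M and mitosis list. For both lists the first promoter listed for each gene was used. The background counts every listed promoter, whether or not its gene was tested, so the shares differ in unit. The 20 members with an E2F word had a median log2 fold change of -0.059 with sgRNA-A against control, and of -0.065 with sgRNA-B. In each comparison 16 of the 20 were below 0, against 48.3% (sgRNA-A) and 51.6% (sgRNA-B) of all genes. For the 21 members without one, MCM10 among them, the medians were -0.012 and 0.028, with 13 and 9 below 0. A match is a description of the letters in this window, and the difference between these sets was not tested.

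Helicase members lay mostly a little below control, and those other than MCM6 and MCM10 did not pass in the fit of all arrays. Of the 11 members of this role, MCM6 and MCM10 included, 9 had a fold change below 0 with sgRNA-A (median -0.058). That is 81.8%, against 48.3% of all genes. With sgRNA-B 8 did (median -0.087), or 72.7% against 51.6%. These counts and medians include MCM6 and MCM10, which were called lower in the mean of both guides. The members above control were GINS3 and GINS4 with each guide, and MCM7 with sgRNA-B. The ring subunit MCM3 measured 10.58, 10.63 and 10.59 in control arrays, 10.44, 10.53 and 10.47 with sgRNA-A and 10.53, 10.50 and 10.52 with sgRNA-B. All its guide arrays were below all control arrays, at -0.12 and -0.087 (adjusted p = 0.159 and 0.316, limma). The ring subunits MCM2 (-0.051 and -0.066), MCM4 (-0.053 and -0.0085) and MCM7 (-0.046 and 0.048) stayed nearer to control, and whether MCM6 differed from these partners was not tested. CDC45, which joins the ring in the active helicase, measured -0.058 and -0.13. Its sgRNA-B arrays lay below the control arrays, and it did not pass (adjusted p = 0.250, limma).

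The GINS complex, a ring partner of 4 subunits, pointed both ways. GINS2 measured 9.73, 9.87 and 9.77 in control arrays and 9.62, 9.64 and 9.56 with sgRNA-B, without overlap, and -0.18 did not pass (adjusted p = 0.164, limma). With sgRNA-A its arrays, at 9.83, 9.66 and 9.57, overlapped the controls. GINS1 measured -0.11 and -0.089 and GINS3 0.02 with each guide. GINS4 had the largest positive value of this role: 7.25, 7.31 and 7.40 in control arrays, 7.62, 7.64 and 7.43 with sgRNA-A and 7.55, 7.54 and 7.65 with sgRNA-B. Every guide array was above every control array, by 0.24 (SE 0.08; adjusted p = 0.177, limma) and 0.26 (SE 0.08; adjusted p = 0.115, limma). In the mean of both guides it measured 0.25 (adjusted p = 0.0715, limma), and it passed there without sgRNA-A replicate 3 (0.28; adjusted p = 0.0362, limma), its lowest guide array.

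**Figure D2:**
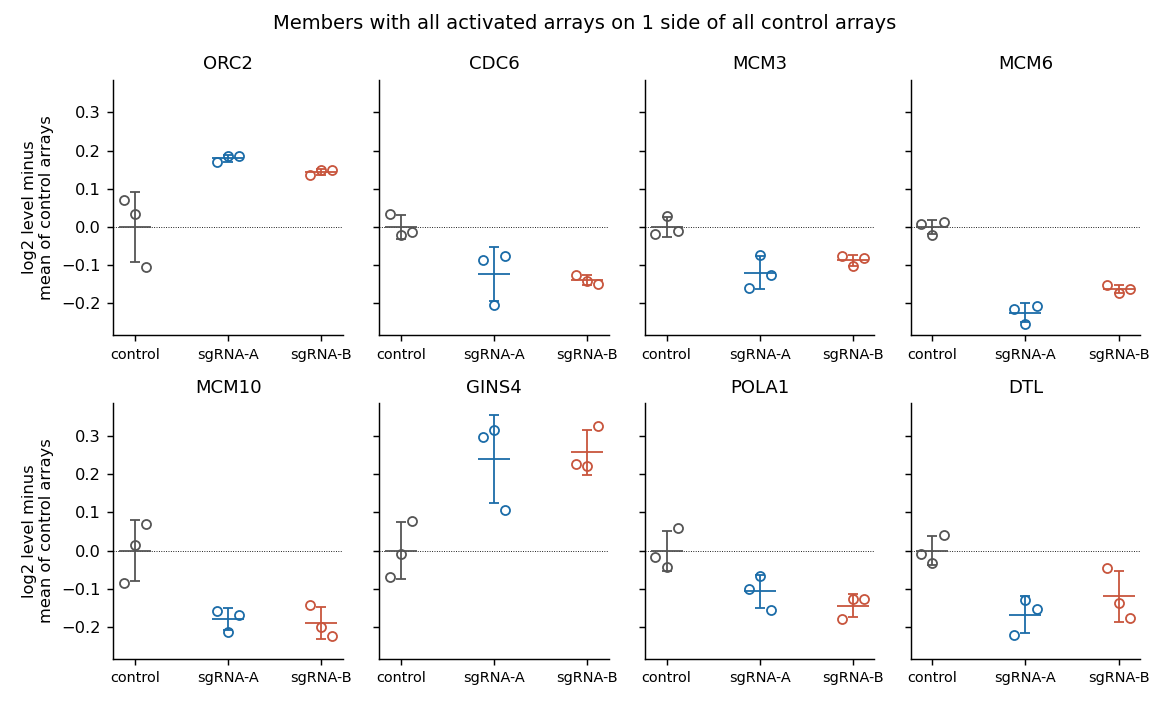
Log2 level of each array minus the mean of the control arrays (vertical axis) for the 8 replication genes whose 6 guide arrays all lay on 1 side of the 3 control arrays, with group mean and SD (n = 3). MCM6, MCM10, CDC6, MCM3, POLA1 and DTL lie below control, and ORC2 and GINS4 lie above it.

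Licensing factors, which prepare origins in G1, were not called with either guide (0 of 8). CDC6, which helps to load the MCM ring, measured 10.13, 10.07 and 10.08 in control arrays, 10.01, 9.89 and 10.02 with sgRNA-A and 9.97, 9.95 and 9.95 with sgRNA-B. All guide arrays were below all control arrays, at -0.12 and -0.14 (adjusted p = 0.237 and 0.136, limma). ORC2, a subunit of the origin recognition complex, lay the other way: 9.54, 9.50 and 9.37 in control arrays, 9.64, 9.65 and 9.65 with sgRNA-A and 9.60, 9.62 and 9.62 with sgRNA-B. The guide arrays were tight and above every control array, while control replicate 3 was low. The changes were 0.18 and 0.14 (adjusted p = 0.0947 and 0.168, limma). ORC1 measured -0.14 with sgRNA-A, where all its arrays were below the controls, and -0.085 with sgRNA-B. ORC3, ORC5 and ORC6 ranged from -0.062 to 0.028 over both guides.

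The licensing activator CDT1 and its inhibitor GMNN, known as geminin, differed in sign between the guides without passing. CDT1 measured 8.57, 8.55 and 8.65 in control arrays, 8.62, 8.60 and 8.38 with sgRNA-A and 8.73, 8.67 and 8.65 with sgRNA-B. GMNN measured 8.86, 8.68 and 8.72, then 8.65, 8.75 and 8.58, then 8.76, 8.76 and 8.87. For each gene the sgRNA-A arrays lay below the sgRNA-B arrays, yet both groups overlapped control, and the differences of -0.14 did not pass (adjusted p = 0.492 each, limma).

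Polymerase and primase genes had 0 of 9 calls with each guide. With each, 7 of 9 were below control (77.8%, against 48.3% of all genes with sgRNA-A and 51.6% with sgRNA-B). POLA1, the catalytic subunit of polymerase alpha, measured 9.89, 9.86 and 9.96 in control arrays, 9.80, 9.84 and 9.75 with sgRNA-A and 9.73, 9.78 and 9.78 with sgRNA-B. Its guide arrays were all below control, at -0.11 and -0.14 (adjusted p = 0.329 and 0.125, limma). Its partners POLA2, PRIM1 and PRIM2 ranged from -0.050 to -0.0017 except for PRIM2 with sgRNA-B, at -0.14 with a 95% interval of -0.44 to 0.16. POLE, the catalytic subunit of the leading-strand polymerase epsilon, measured 8.63, 8.54 and 8.61 in control arrays, 8.56, 8.62 and 8.42 with sgRNA-A and 8.48, 8.36 and 8.39 with sgRNA-B. Only its sgRNA-B arrays lay below all controls (-0.18; adjusted p = 0.176, limma), and the guides did not differ in the test (0.12; adjusted p = 0.537, limma). POLE2 measured -0.14 and -0.10. In the lagging-strand polymerase delta, the catalytic subunit POLD1 measured 7.08, 7.16 and 7.29 in control arrays, 7.37, 7.50 and 7.28 with sgRNA-A and 7.27, 7.32 and 7.27 with sgRNA-B, with overlap, at 0.21 and 0.11 (adjusted p = 0.293 and 0.624, limma). POLD2 measured 0.041 and 0.089, and POLD3 -0.081 and -0.038.

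The sliding clamp, its loader and the proteins that coat single-stranded DNA had 0 of 9 calls with each guide. PCNA, the clamp, measured 10.77, 10.86 and 10.74 in control arrays, 10.76, 10.63 and 10.71 with sgRNA-A and 10.76, 10.77 and 10.77 with sgRNA-B. These overlap, and the intervals were -0.18 to 0.01 and -0.12 to 0.07. In this role 6 members were below control with sgRNA-A (median -0.046), or 66.7% against 48.3% of all genes. With sgRNA-B 2 were (median 0.036), or 22.2% against 51.6%. The loader subunits RFC1 to RFC4 ranged from -0.064 to 0.11 over both guides. RPA3, the smallest subunit of replication protein A, scattered more between arrays than most members: 7.96, 8.03 and 7.93 in control arrays, 8.30, 8.03 and 8.36 with sgRNA-A and 7.88, 8.21 and 7.94 with sgRNA-B. Its 0.25 with sgRNA-A did not pass (SE 0.10; adjusted p = 0.262, limma). RPA1 measured 9.61, 9.62 and 9.61 in control arrays and 9.76, 9.73 and 9.63 with sgRNA-B, at 0.092 (adjusted p = 0.389, limma), above every control array. RPA2 measured -0.053 and 0.0065.

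Genes for joining fragments and for nucleotide supply stayed near control. The flap nuclease FEN1 measured 0.038 and 0.037 and the ligase LIG1 0.061 and 0.095. RRM2, the regulated subunit of ribonucleotide reductase, measured 11.71, 11.75 and 11.71 in control arrays, 11.75, 11.76 and 11.77 with sgRNA-A and 11.69, 11.82 and 11.77 with sgRNA-B. Its change was 0.041 with sgRNA-A, with a 95% interval of -0.04 to 0.12, and 0.04 with sgRNA-B, with the same interval. RRM1 and the thymidylate synthase gene TYMS ranged from -0.036 to 0.0039. Of these 5 genes, limma called 0 with either guide, against 2.18% of all genes with sgRNA-A and 3.07% with sgRNA-B. An unadjusted p below 0.05 was found for 0, against 13.4% and 14.7% of all genes. With 5 genes, 0 cannot be told apart from these shares.

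Among the chromatin and ubiquitin factors, 0 of 4 were called with each guide. DTL, the receptor of the ubiquitin ligase that removes CDT1 in S phase, measured 10.25, 10.23 and 10.30 in control arrays, 10.04, 10.13 and 10.11 with sgRNA-A and 10.22, 10.13 and 10.09 with sgRNA-B. All guide arrays were below all control arrays, though by little for sgRNA-B replicate 1, and -0.17 and -0.12 did not pass (adjusted p = 0.0935 and 0.233, limma). CHAF1A measured 0.025 and -0.0052, and CHAF1B -0.061 and -0.075 near the level of silent genes. UHRF1, which keeps DNA methylation on new strands, measured 0.10 and -0.045.

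With sgRNA-A alone, 11 members had all arrays below control and 4 above (23.9% and 8.7%, against 8.78% and 8.98% of all genes). With sgRNA-B alone, 10 were below and 4 above, 30.4% of members in all against 20.2% of all genes (10.5% below and 9.67% above). Counted over both guides, 8 of 46 members (17.4%) had all 6 guide arrays on 1 side of the 3 control arrays, against 8.26% of all genes. Of these, 6 were lower (13.0%, against 4.18%) and 2 were higher (4.35%, against 4.08%). Unadjusted p-values below 0.05 were found for 12 members with sgRNA-A (26.1%, against 13.4% of all genes), 8 lower and 4 higher, and for 11 with sgRNA-B (23.9%, against 14.7%), 9 lower and 2 higher.

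Between the guides, 0 of 46 members were called in limma, against 0.104% of all genes (0.0418% higher and 0.0627% lower with sgRNA-A), and 3 had an unadjusted p below 0.05 (6.52%, against 10.5% of all genes). The 95% interval of the difference lay within 0.5 log2 units of 0 for all 46 members. The clamp loader subunit RFC5 measured 8.95, 8.82 and 8.88 in control arrays, 8.82, 8.76 and 8.73 with sgRNA-A and 8.92, 8.95 and 8.94 with sgRNA-B. The guides did not overlap, at a difference of -0.17 (95% interval -0.28 to -0.05; adjusted p = 0.300, limma). UHRF1 measured 9.43, 9.49 and 9.50, then 9.58, 9.52 and 9.63, then 9.41, 9.46 and 9.42, so sgRNA-A lay above sgRNA-B (0.15; adjusted p = 0.308, limma). RPA3 differed by 0.22 (adjusted p = 0.463, limma) with overlapping arrays. MCM7 measured 9.74, 9.72 and 9.74 with sgRNA-A and 9.89, 9.83 and 9.75 with sgRNA-B, at -0.094 (adjusted p = 0.506, limma). The sgRNA-A arrays lay wholly below the sgRNA-B arrays for 6 members and above them for 3, or 19.6% of members against 15.9% of all genes (7.34% below and 8.56% above). The median difference over the members was 0.00087, against 0.0045 over all genes, and lay between -0.018 (without sgRNA-B replicate 1) and 0.0071 when 1 array was left out, so its sign was not fixed. In the fit of all arrays 22 members (47.8%, against 47.9%) were lower with sgRNA-A.

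**Figure D3:**
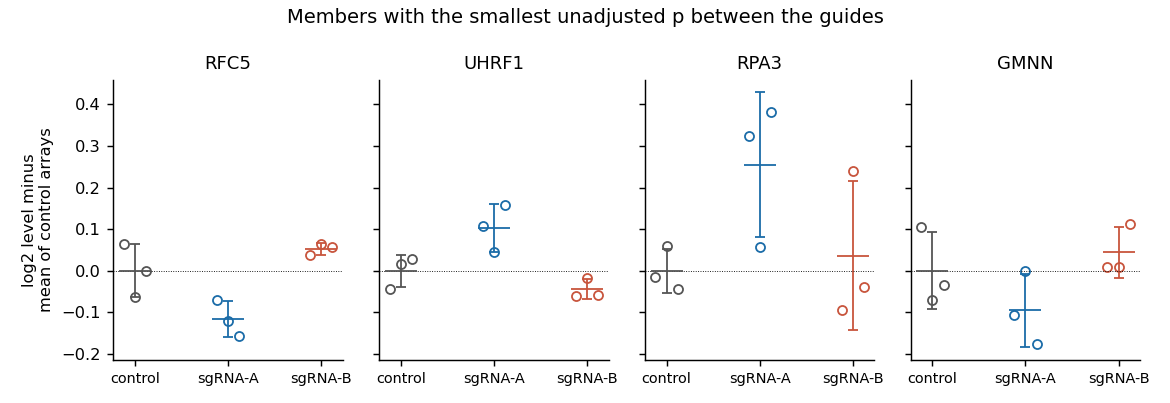
Log2 level of each array minus the mean of the control arrays (vertical axis) for RFC5, UHRF1, RPA3 and GMNN, the members with the smallest unadjusted p between the guides, with group mean and SD (n = 3). The guide arrays separate for RFC5, UHRF1 and GMNN and overlap for RPA3, and no difference passed after adjustment.

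Other genes of the pathway, outside the 46, are given for the mean of both guides against control. In that comparison 3.57% of all genes were called. Of 42 further replication factors, 1 rose and 1 fell (4.76%, near that share): the polymerase epsilon subunit POLE4 (0.24; adjusted p = 0.0100, limma) and FAM111B, a protease gene of the S-phase programme (-0.26; adjusted p = 0.00496, limma). The list's median was -0.0054, against 0.00071 over all genes and -0.030 over the 46 members, of which 29 of 46 were below 0, against 49.6% of all genes. The members' median was -0.016 without control replicate 2. Of 18 further nucleotide supply genes, 2 rose and 0 fell (11.1%, against 3.57% of all genes), thymidine kinase TK1 (0.22; adjusted p = 0.00473, limma) and thymidylate kinase DTYMK (0.20; adjusted p = 0.00484, limma). With sgRNA-B alone the dNTP hydrolase SAMHD1 was also called (0.21; adjusted p = 0.0472, limma), a call lost in 7 of the 9 analyses that left out 1 array, with an adjusted p up to 0.177.

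Of 37 genes of G1/S control, 3 fell and 1 rose (10.8%, against 3.57% of all genes). The G1/S cyclins CCNE1 (-0.21; adjusted p = 0.0208, limma) and CCNE2 (-0.30; adjusted p = 0.0184, limma) and the pocket protein RBL1 (-0.27; adjusted p = 0.0218, limma) fell, while CCNA2, a cyclin of S phase and G2, rose (0.16; adjusted p = 0.0124, limma). CCNE1 was not called without control replicate 1 (0.124) or 2 (0.0539), CCNE2 without control replicate 2 (0.0851) or 3 (0.0624), RBL1 without control replicate 1 (0.139) or 2 (0.0591), and CCNA2 without control replicate 3 (0.0546). With sgRNA-B alone the ubiquitin ligase scaffold CUL4A was called too (-0.16; adjusted p = 0.0471, limma), which was lost in 7 of the 9 analyses that left out 1 array. Of 15 checkpoint genes, 1 rose and 2 fell (20% called, against 3.57% of all genes). The phosphatase CDC25C, which drives entry into mitosis, rose (0.37; adjusted p = 0.00326, limma). The kinases WEE1, which holds cells before mitosis (-0.25; adjusted p = 0.0144, limma), and TLK2, active in S phase (-0.21; adjusted p = 0.0270, limma), fell. WEE1 was not called without control replicate 1 (0.104), and TLK2 lost its call in 6 of the 9 analyses that left out 1 array, with an adjusted p up to 0.104.

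Genes of G2/M and mitosis gave 15 rises, 0 falls and 14 that did not pass among 29 (median 0.16), or 51.7% called against 3.57% of all genes. The 46 replication genes gave 0 rises and 2 falls in the same comparison, or 4.35%, near that background. CDC20, an activator of the mitotic ubiquitin ligase, rose by 0.28 (adjusted p = 0.000166, limma) and the mitotic kinesin KIF20A by 0.40 (adjusted p = 0.00111, limma). Of the 9 analyses that left out 1 array, BIRC5 and PLK1 lost their calls in 8, and AURKA and TTK in 7. HMMR lost its call in 2 and CCNB1 in 1, while the other mitotic rises kept theirs. In each guide array the median of this list was 0.16 to 0.19 above the control mean, while the control arrays lay between -0.039 and 0.034. For the replication members the guide arrays lay between -0.054 and -0.010 and the control arrays between -0.015 and 0.0062, so the groups overlapped. For the helicase role, which holds MCM6 and MCM10, they lay between -0.11 and -0.053 and between -0.030 and 0.034, without overlap. In every other role the groups overlapped, as for polymerases and primase (-0.081 to -0.024 and -0.038 to 0.015). They also overlapped over all genes (-0.0080 to 0.0065 and -0.0023 to 0.0024). Control arrays lie around 0 by construction, since the differences are from their own mean. The lists were chosen with earlier results known and the difference between them was not tested, nor was the part of mitotic genes in the levels of replication genes.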

How the data were processed

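Expression was measured on Affymetrix arrays in 9 cultures. The authors deposited 1 log2 value per probe set and array. RMA was used, per the submitters' processing notes; its version and the probe-to-gene definition are not given in the sources used here. Quantile scaling in RMA makes array distributions alike, so a shift of all genes together cannot be seen. The deposited columns had a median of 4.91 each. The 24733 probe sets comprised 23934 with 1 symbol in GEO's platform annotation, 0 with several and 799 with none; the brightest was kept for 3 symbols with more than 1, which left 23931 genes.

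All 9 arrays were fitted together, each group with its own mean, using limma 3.58.1 under R 4.3.3 (lmFit, eBayes with trend=TRUE; 6 residual and 7.27 prior degrees of freedom), with Benjamini-Hochberg adjustment over all genes. Contrasts set each guide, and then the average of the 2 guides, against control, and sgRNA-A against sgRNA-B. Intervals are 95% intervals of the fit. Precision is limited by how few arrays there were. The fit was tested on simulated data with independent normal spread, where average estimates came close to the changes put in. That check covers the estimates, and how often small changes pass is not given here.

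The members and all lists were chosen with earlier results of these data known. Named members are those called in any contrast, the 8 with the smallest p in each contrast and the largest change of each role. In other lists, called genes are named, at most 4 a contrast. As alternatives, single arrays were dropped in turn and the replicate number was added as a block; the rest were other variance priors, fits of the compared groups alone, array weights, removal of the dimmest 30% of genes, repeated quantile normalization, median centring and the dimmest of several probe sets. Those for the other lists were added after seeing the data.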

Additional observations from a re-analysis of the deposited data

How the results depend on the processing

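No called gene of the members or other lists changed sign in any alternative (66 calls, 1160 refits), and 234 refits lost a call. These genes were picked for passing in the same data, and a changed variance prior leaves a fold change as it was. The kept signs are therefore not independent support. The count of members called with sgRNA-A was 1 and between the guides 0 in every alternative. With sgRNA-B the count was 0, against 1, with the replicate number as a block, without the mean-variance trend and in a fit of only the groups compared, 2 without the dimmest 30% of genes, and 0 to 1 when 1 array was left out. For the mean of both guides it was 1, against 2, with the replicate block and without the trend, 1 to 2 when 1 array was left out, and 3 with array weights (GINS4 in addition) or without the dimmest 30% of genes (ORC2 in addition). With the block the adjusted p (limma) was 0.0527 for MCM6 with sgRNA-B and 0.0544 for MCM10 in the mean of both guides. Fewer arrays stand behind the refits that left out 1 array or used only the groups compared. The cause of the other losses was not tested. Whether replicate numbers pair the arrays was not settled. Deviations of same-numbered arrays correlated at -0.15 to 0.14 over 9 pairs, 1 of them above 0.1. The 18 other pairs gave -0.13 to 0.12, with 2 above 0.1. Same-numbered control and sgRNA-A arrays correlated at 0.087, -0.058 and 0.094 for replicates 1 to 3. With sgRNA-B arrays the values were 0.093, 0.14 and 0.049, and between the guides 0.0046, -0.15 and -0.0059. Over all alternatives, 4 of 46 members were called in any contrast, MCM6, MCM10, GINS4 and ORC2 (the last in the mean of both guides without the dimmest 30% of genes, adjusted p = 0.0428, limma). CHAF1B is limited by its signal.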
